A study of Mus musculus with 15 samples.

Results

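Expression of 9 genes that mark the portal or the central end of the liver lobule was compared across 15 mouse livers by RNA sequencing. They were chosen by symbol for their known zone, with earlier results of these data known, and make up 9 of the 17527 genes in the table. Etnppl, Hal, Sds and Gldc (4 genes) are held to be periportal, and Rhbg, Axin2, Slc1a2, Tbx3 and Lect2 (5 genes) pericentral. All 9 had a mean of at least 1 FPKM over the 15 libraries and were tested. FPKM is fragments per kilobase of gene, scaled to the number of mapped fragments, a level that allows for gene length and library size.

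There were 3 groups of 5 libraries. The control livers came from mice labelled control, and the labels do not say what these mice ate. The model livers came from a diet model of nonalcoholic steatohepatitis. Its mice ate a high-fat high-sucrose diet (60% of kcal from fat, 20% from protein, 20% from carbohydrate, with 0.2% cholesterol) for 20 weeks. They also drank water with 42 g/L of sugar, of which 55% was sucrose and 45% fructose, and from week 12 were given saline by mouth each day. The BBBPH livers came from mice on the same food and sugar water that were given 150 mg/kg of biotransformed bear bile powder by mouth each day over the same period in place of saline. The dosed group held 14 mice, of which 5 libraries are in the data. Strain, sex and age are not given in the labels, nor is it stated that each library is a separate mouse, so the p-values measure the spread between these samples.

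Blood enters the liver lobule at the portal tract and leaves at the central vein, and hepatocytes along the way carry out different tasks. Periportal hepatocytes take up much of the amino acid breakdown, urea synthesis and glucose output, while pericentral hepatocytes make glutamine from the remaining ammonia and carry many of the cytochrome P450 enzymes. WNT ligands and R-spondin from cells of the central vein stabilise beta-catenin in the nearest hepatocytes. Beta-catenin with TCF/LEF factors then turns on pericentral genes, among them feedback inhibitors such as Axin2. These libraries are of whole liver, so a lower level from fewer cells of a type and one from less RNA per cell cannot be told apart, and a level says nothing of where in the lobule the RNA was.

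Upstream sequence from RefSeq (build GRCm38.p6) was found for 6 of the 9 genes, and the 250 bases before the start were searched for 4 words that TCF/LEF factors are known to favour, on both strands. These were the word CTTTGAA, then the word CTTTGAT, then the word CTTTGTA and last the word CTTTGTT. Of 32851 such windows over all genes, 14.8% held at least 1 of these words. The windows of Slc1a2, Hal and Lect2 held 1 match each, the word CTTTGAT, and those of Axin2, Gldc and Etnppl (2 windows) held none. Sds, Rhbg and Tbx3 had no entry. A match is a description of letters, not a binding site. Below are 3 windows with a match and that of Axin2, the best known beta-catenin target among the 9, 5′ to 3′ on the strand of the gene, with the matching word in capitals. They are from chr2:102706188-102706355 on the + strand for Slc1a2, chr10:93488518-93488767 (+) for Hal, chr11:108920099-108920348 (+) for Axin2 and chr13:56548539-56548788 (-) for Lect2. The Slc1a2 stretch is the first 168 bases of its window, ends where an annotated exon begins, and lies within an intron of longer Slc1a2 transcripts.
Slc1a2: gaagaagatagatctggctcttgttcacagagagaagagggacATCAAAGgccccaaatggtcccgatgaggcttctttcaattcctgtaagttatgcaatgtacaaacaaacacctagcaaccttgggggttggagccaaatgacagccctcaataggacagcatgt
Hal: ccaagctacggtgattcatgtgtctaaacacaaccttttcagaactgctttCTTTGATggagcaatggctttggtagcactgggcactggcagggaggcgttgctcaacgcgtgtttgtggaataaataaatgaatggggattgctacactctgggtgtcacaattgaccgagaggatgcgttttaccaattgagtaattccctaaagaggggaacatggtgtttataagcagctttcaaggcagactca
Axin2: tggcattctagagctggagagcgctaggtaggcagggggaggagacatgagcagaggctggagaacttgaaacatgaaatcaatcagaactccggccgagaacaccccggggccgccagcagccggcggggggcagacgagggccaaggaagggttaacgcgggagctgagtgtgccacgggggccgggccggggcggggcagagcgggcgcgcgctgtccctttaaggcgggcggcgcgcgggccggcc
Lect2: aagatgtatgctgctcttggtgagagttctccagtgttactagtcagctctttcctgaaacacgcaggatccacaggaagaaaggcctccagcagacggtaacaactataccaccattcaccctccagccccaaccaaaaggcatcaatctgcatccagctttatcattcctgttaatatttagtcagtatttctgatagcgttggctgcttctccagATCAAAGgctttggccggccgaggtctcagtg
The word began 207 bases before the start in Slc1a2 and 32 before it in Lect2, on the opposite strand in both and so printed as ATCAAAG, and 199 bases before it in Hal on the same strand.

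Depth was even, at 35395712 to 39624160 fragments per library, as recovered from the FPKM. The hepatocyte markers Alb, Apoa1, Ttr, Fgb, Serpina1c, Hnf4a and Tat were above 0 in every group, as the label liver calls for, and summed to 61892 to 70633 FPKM in control, 36443 to 56845 in model and 56542 to 66218 in BBBPH livers. In 3 libraries a group of genes stood apart. In model 1_4, Saa2, a serum amyloid gene of the acute-phase response, was at 14965 FPKM, while the remaining model livers had 61.6 to 194. BBBPH 2_2 had 978 FPKM of the pancreatic gene Ctrb1, against at most 0.905 in the other 14 libraries, and control 2_1 had 70.0 FPKM of the skeletal muscle gene Tnnt3, against at most 0.145.

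Among the 9 genes, 4 were called between model and control (38.6% of all 9575 genes tested were), 6 between BBBPH and model (26.5%), and 6 between BBBPH and control (28.1%), at an adjusted p under 0.05 in limma. The 3 comparisons share their libraries. As the 9 genes were chosen with earlier results of these data known, these counts are a description and not a test. Model livers had less Etnppl and more Gldc, Rhbg and Lect2 than control livers. BBBPH livers had less Etnppl, Hal, Gldc and Rhbg and more Axin2 and Tbx3 than model livers. Within a zone the genes differed in direction: Etnppl and Gldc, both periportal, went opposite ways with the diet, and Rhbg and Tbx3, both pericentral, went opposite ways with the powder. Here and below, with the diet means model against control, and with the powder means BBBPH against model, in separate groups of libraries. The model mice also had sugar water and daily saline, and the food of the controls is not given. Model against control therefore cannot be read as the food alone. Values below are in FPKM and follow the order of libraries 1_1, 1_5, 2_1, 2_2 and 3_4 for control, 1_1, 1_4, 2_1, 2_3 and 3_4 for model, and 2_1, 2_2, 3_1, 3_2 and 3_4 for BBBPH. Differences (log2) are on the log2(FPKM + 1) scale, with 95% intervals, and those of genes near 1 FPKM are understated on it.

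**Figure D1:**
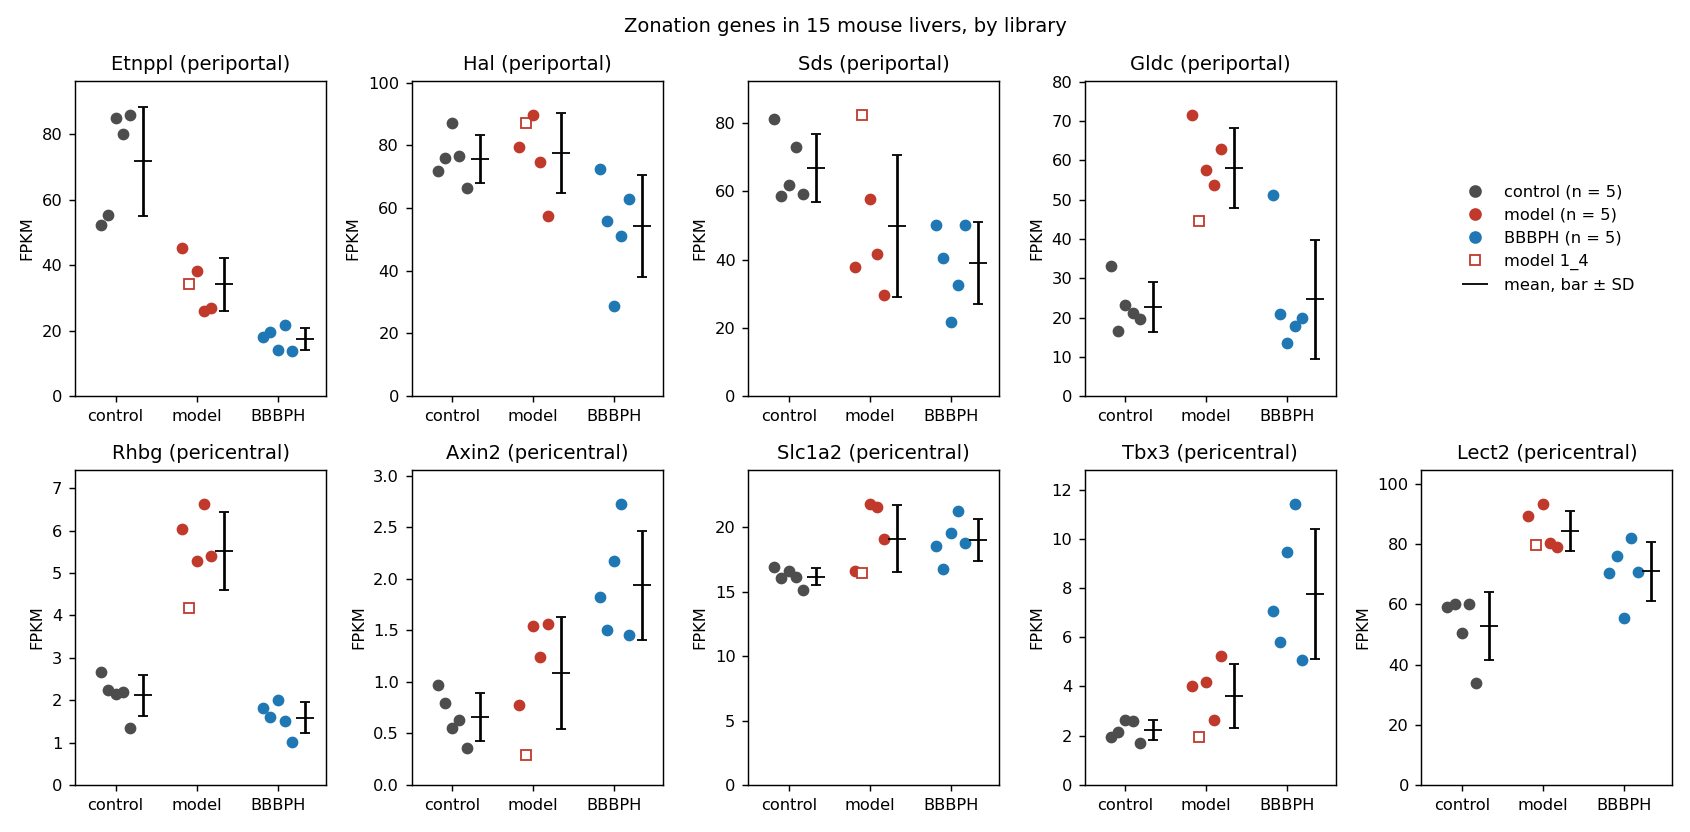
Level of each of the 9 genes in FPKM (y axis, linear from 0) in the 5 control, 5 model and 5 BBBPH livers; each point is 1 library, the bar is the mean ± SD, and the open square is model 1_4. Etnppl steps down from control to model to BBBPH without overlap, Rhbg and Gldc are high in the model group, and Tbx3 and Axin2 are highest in the BBBPH group.

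Etnppl codes for the lyase that breaks down phosphoethanolamine, an intermediate of phosphatidylethanolamine synthesis. It is on chromosome 3 (GRCm38, 130617448 to 130637521, + strand). Control livers had 52.1, 55.2, 85.0, 80.2 and 85.9 FPKM, model livers 45.3, 34.1, 38.2, 25.9 and 27.0, and BBBPH livers 18.0, 19.5, 14.0, 21.6 and 13.9. All control values were above all model values, and all model values above all BBBPH values. The means were 71.7 ± 16.6, 34.1 ± 8.09 and 17.4 ± 3.39 FPKM (SD, n = 5 each). Etnppl was lower by 1.05 (log2, interval -1.43 to -0.66, adjusted p = 0.000488) in model than in control livers. It was lower by 0.92 (-1.31 to -0.54, adjusted p = 0.00173) in BBBPH than in model livers. The BBBPH mean was 4.12 times below the control mean (adjusted p = 2.25e-05). These calls held under every alternative run.

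Gldc codes for the glycine decarboxylase of the mitochondrial glycine cleavage system, which breaks glycine down to carbon dioxide and ammonia (chromosome 19, 30098447 to 30175429, - strand). Control livers had 33.0, 16.5, 23.1, 21.2 and 19.6 FPKM, model livers 71.6, 44.6, 57.4, 53.7 and 63.0, and BBBPH livers 51.3, 20.8, 13.5, 17.9 and 19.8. All model values were above all control values, and 4 of the 5 BBBPH values lay below every model value. Gldc rose 2.56-fold with the diet (log2 difference 1.34, 0.77 to 1.91, adjusted p = 0.00135) and was 2.36 times lower with the powder (-1.34, -1.91 to -0.77, adjusted p = 0.0019). Between BBBPH and control the difference was -0.00 (-0.57 to 0.56, adjusted p = 0.992), with means of 24.6 ± 15.2 and 22.7 ± 6.27 FPKM. The single library BBBPH 2_1 lay apart from the rest of its group. Without it the other 4 averaged 18.0 ± 3.26 FPKM, the difference from the model was -1.64 (adjusted p = 3.04e-05) and that from control -0.30 (adjusted p = 0.212).

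Hal codes for histidine ammonia-lyase, the first step of histidine breakdown (chromosome 10, 93488768 to 93519304, + strand). Control livers had 71.9, 76.0, 87.0, 76.5 and 66.5 FPKM, model livers 79.6, 87.0, 89.7, 74.6 and 57.5, and BBBPH livers 72.6, 55.8, 28.9, 51.2 and 62.8. The model values spanned those of the controls, and the BBBPH values ran lower but overlapped both. The model differed from control by 0.03 (-0.37 to 0.43, adjusted p = 0.923). Hal was called lower in BBBPH than in model livers (-0.56, -0.96 to -0.15, adjusted p = 0.0407) and than in control livers (-0.53, -0.93 to -0.12, adjusted p = 0.0488). Both calls lay near the threshold, and with no filter both were lost (adjusted p = 0.0754 and 0.0895). With the first digit of the replicate number as a block both were lost too (adjusted p = 0.135 and 0.15). The call against the model ended when any 1 of 9 libraries was left out (BBBPH 2_2, 3_1 or 3_2, control 1_5 or 2_2, model 1_1, 1_4, 2_1 or 2_3), with adjusted p between 0.0505 and 0.0894. The call against control ended without any 1 of 12, namely these 9 and control 1_1, 2_1 and 3_4, with adjusted p between 0.0509 and 0.0979. Without BBBPH 3_1, which had the lowest level of all 15, the differences were -0.35 (adjusted p = 0.0662) and -0.32 (adjusted p = 0.0825).

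Sds codes for serine dehydratase, which turns serine into pyruvate and ammonia (chromosome 5, 120476526 to 120483932, + strand). Control livers had 81.1, 58.5, 61.9, 73.0 and 59.2 FPKM, model livers 37.8, 82.3, 57.6, 41.6 and 29.6, and BBBPH livers 50.1, 40.4, 21.7, 32.7 and 50.04. All BBBPH values were below all control values, and 4 of 5 model values were too, with model 1_4 above every control. Sds was 1.71 times lower in BBBPH than in control livers (-0.81, -1.34 to -0.28, adjusted p = 0.0263). It was not called between model and control (-0.49, -1.03 to 0.04, adjusted p = 0.132) or between BBBPH and model (-0.32, -0.85 to 0.22, adjusted p = 0.379). Without model 1_4 it was called lower in the model (-0.69, adjusted p = 0.0263). The call between BBBPH and control ended without BBBPH 3_1, BBBPH 3_2, control 1_1 or control 2_2, with adjusted p between 0.0552 and 0.0634, and with no filter (adjusted p = 0.0543). It was weakest with the first digit of the replicate number as a block (-0.59, adjusted p = 0.119). Plbd2, on the opposite strand, shares 360 of the 1694 exon bases of Sds in GENCODE M21, and whether the reads were counted by strand is not given in the sources used here.

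Rhbg codes for an ammonia transporter of the Rh family in the membrane of pericentral hepatocytes (chromosome 3, 88242874 to 88254709, - strand). Control livers had 2.68, 2.23, 2.15, 2.19 and 1.34 FPKM, model livers 6.05, 4.18, 5.29, 6.64 and 5.41, and BBBPH livers 1.82, 1.61, 2.004, 1.501 and 1.01. Every model value was above every control and BBBPH value, with 303 to 477 fragments behind each model value and 79 to 190 behind the others. Rhbg rose 2.604-fold with the diet (1.07, 0.79 to 1.35, adjusted p = 3.70e-05) and was 3.47 times lower with the powder (-1.33, -1.61 to -1.05, adjusted p = 9.97e-06). Between BBBPH and control the difference was -0.27 (-0.55 to 0.02, adjusted p = 0.143), and it was called without control 3_4 (-0.37, adjusted p = 0.0421). Another gene model, Gm38392, shares 1190 of the 1937 exon bases of Rhbg on the same strand in GENCODE M21, so reads of both could have been split or left uncounted and the level of Rhbg is uncertain.

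Lect2 codes for a protein secreted by hepatocytes that is known as a chemoattractant for neutrophils and as a beta-catenin target (chromosome 13, 56542464 to 56548502, - strand). Control livers had 59.2, 60.0, 50.5, 60.0 and 33.9 FPKM, model livers 89.2, 79.7, 93.5, 80.5 and 79.2, and BBBPH livers 70.6, 76.1, 55.4, 82.0 and 70.6. All model values were above all controls, and the BBBPH values lay between the groups and overlapped both. Lect2 rose 1.60-fold with the diet (0.70, 0.40 to 0.997, adjusted p = 0.00147) and was not called between BBBPH and model (-0.26, -0.56 to 0.04, adjusted p = 0.2). It was called higher in BBBPH than in control livers (0.44, 0.14 to 0.74, adjusted p = 0.0304). That call ended without BBBPH 2_2, 3_2 or 3_4 or control 2_1 or 3_4 (adjusted p between 0.0501 and 0.0806, difference 0.29 without control 3_4), and with the libraries scaled by median ratios (0.27, adjusted p = 0.19) or by quantiles (0.35, adjusted p = 0.0617), and with no filter (adjusted p = 0.0557). It also ended with the full replicate number as a block (adjusted p = 0.055).

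Axin2 codes for a scaffold of the complex that destroys beta-catenin, and is itself a direct target of WNT signalling (chromosome 11, 108920349 to 108950783, + strand). Control livers had 0.968, 0.794, 0.557, 0.630 and 0.355 FPKM, model livers 0.778, 0.292, 1.54, 1.24 and 1.56, and BBBPH livers 1.82, 1.5004, 2.17, 2.73 and 1.46. All BBBPH values were above all controls, and the model values spread from below every control to the level of the lower BBBPH livers. The lowest, model 1_4, rested on 54 fragments and the highest, in BBBPH 3_2, on 519. The BBBPH mean was 2.93 times the control mean (0.82, 0.44 to 1.19, adjusted p = 0.00435), and on a log2(FPKM + 0.1) scale this difference was 1.44 (adjusted p = 0.00767). Against the model Axin2 was called higher with the powder (0.52, 0.15 to 0.90, adjusted p = 0.0388). Axin2 passed the filter only through the BBBPH group, where it is high (1.94 ± 0.530 FPKM, against 0.661 ± 0.233 in control and 1.08 ± 0.544 in model livers), and with no filter on low values this call was lost (adjusted p = 0.0706). It also ended without BBBPH 2_1, 3_1 or 3_2 or model 1_1 or 1_4, with adjusted p between 0.0556 and 0.101, and with a pseudocount of 0.1 (0.92, adjusted p = 0.0628). With the first digit of the replicate number as a block it was 0.43 (adjusted p = 0.157). The model differed from control by 0.29 (-0.08 to 0.67, adjusted p = 0.199).

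Tbx3 codes for a T-box transcriptional repressor that hepatocytes switch on downstream of beta-catenin (chromosome 5, 119670669 to 119684724, + strand). Control livers had 1.96, 2.15, 2.63, 2.62 and 1.71 FPKM, model livers 4.03, 1.93, 4.17, 2.65 and 5.24, and BBBPH livers 7.05, 5.80, 9.46, 11.4 and 5.09. All BBBPH values were above all controls, and only model 3_4 reached the lowest BBBPH value. Tbx3 was 3.51 times higher in BBBPH than in control livers (1.41, 0.96 to 1.85, adjusted p = 0.000497) and 2.15 times higher than in model livers (0.93, 0.48 to 1.37, adjusted p = 0.00428), and both calls held under every alternative run. The model differed from control by 0.48 (0.03 to 0.92, adjusted p = 0.0818), and without model 1_4 this was called (0.63, adjusted p = 0.0218).

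Slc1a2 codes for a glutamate transporter best known from astrocytes, which in the liver is found in the hepatocytes beside the central vein (chromosome 2, 102658659 to 102790784, + strand). Control livers had 16.9, 16.1, 16.6, 16.1 and 15.1 FPKM, model livers 16.6, 16.4, 21.9, 21.6 and 19.1, and BBBPH livers 18.6, 16.8, 19.6, 21.3 and 18.8. The controls lay close together, and both other groups ran from within the upper part of their range to above it. No comparison was called. The model differed from control by 0.22 (0.04 to 0.40, adjusted p = 0.0503), BBBPH from control by 0.22 (0.04 to 0.39, adjusted p = 0.066), and BBBPH from the model by -0.00 (-0.18 to 0.18, adjusted p = 0.984). Leaving out model 1_1, model 1_4, BBBPH 2_2 or BBBPH 3_2 gave a call between model and control (adjusted p between 0.0213 and 0.0471), and leaving out BBBPH 2_2 gave one between BBBPH and control (0.26, adjusted p = 0.0444). Of 31 alternatives, 11 gave a call in the first comparison and 4 in the second. Median-ratio scaling took the differences to 0.07 (adjusted p = 0.468) and 0.05 (adjusted p = 0.657). Quantile scaling gave 0.10 in both (adjusted p = 0.292 and 0.387).

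**Figure D2:**
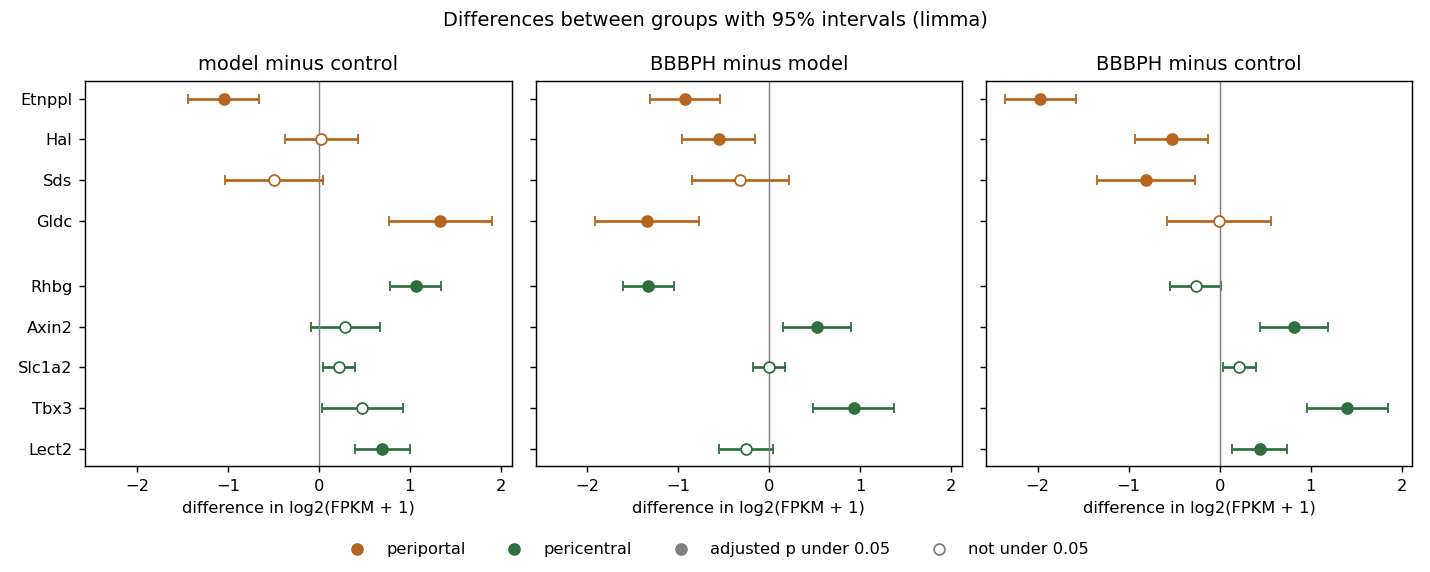
Difference in log2(FPKM + 1) with its 95% interval (x axis) for each of the 9 genes (y axis) in the 3 comparisons of 5 against 5 libraries; filled points have an adjusted p under 0.05. Etnppl lies left of 0 in all 3 panels, Gldc and Rhbg change side between the first and second panels, and Tbx3 lies right of 0 with intervals that exclude 0.

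Set against all genes, 3 of 9 were higher in the model than in control, where 29.9% of all genes tested were, and 1 of 9 lower, against 8.64%. In BBBPH against model, 2 were higher (all genes 14.2%) and 4 lower (12.2%). In BBBPH against control, 3 were higher (24.4%) and 3 lower (3.7%). These shares too are a description, given how the 9 were chosen. Groups did not overlap for Etnppl, Gldc, Rhbg and Lect2 between model and control, where this held for 23.9% of all genes. They did not for Etnppl and Rhbg between BBBPH and model (all genes 17%), nor for Etnppl, Sds, Axin2 and Tbx3 between BBBPH and control (17.5%). The median difference over the 9 was 0.29, -0.32 and -0.00 in that order, beside 0.12, 0.02 and 0.13 over all genes tested. With libraries scaled by median ratios, the median over all genes was -0.01, 0.01 and -0.01. No called difference of the 9 genes changed sign with it.

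A single model library weighed on these counts. Model 1_4 was the lowest of its group in Gldc, Rhbg, Axin2, Slc1a2 and Tbx3 and the highest in Sds, and it is the library with the high Saa2. Without it, 8 of the 9 genes were called between model and control (36.6% of all genes were), with all 5 pericentral genes higher: Axin2 by 0.45 (adjusted p = 0.025) and Slc1a2 by 0.27 (adjusted p = 0.0213), besides Tbx3, Rhbg and Lect2. Etnppl and Sds were then lower, Gldc higher, and Hal not called (-0.02, adjusted p = 0.959). Over the 9572 genes tested without model 1_4, 2754 were called higher and 747 lower, with a median difference of 0.12. With all libraries and median-ratio scaling, Axin2, Slc1a2 and Tbx3 differed by 0.22, 0.07 and 0.37, and none of them was called. Between BBBPH and model, 4 of 9 were called without model 1_4 (23.6% of all genes), and the calls of Hal and Axin2 ended. Whether the acute-phase signal of this library had a part in its levels was not tested. Among the controls, 3_4 was lowest in 6 of the 9 genes and 1_1 highest in 5. In the BBBPH group, 3_1 was lowest in Hal, Sds, Gldc and Lect2 while 3_2 was highest in Etnppl, Axin2, Slc1a2, Tbx3 and Lect2. Without BBBPH 3_2, 3 of 9 genes were called between BBBPH and control in place of 6.

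**Figure D3:**
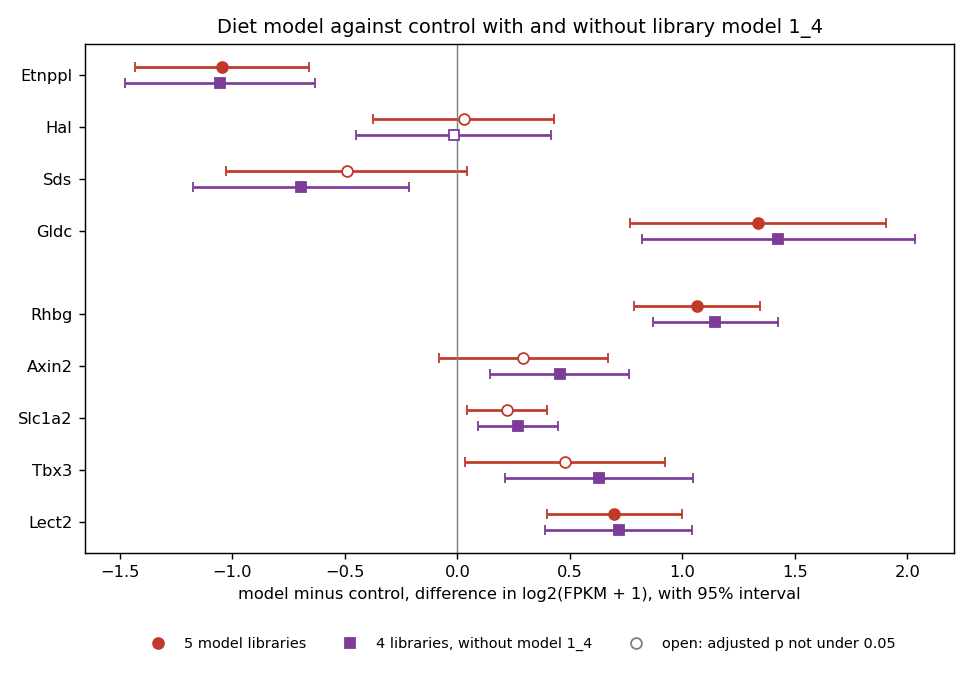
Difference between model and control in log2(FPKM + 1) with its 95% interval (x axis) for the 9 genes (y axis), with all 5 model libraries (circles) and with 4, leaving out model 1_4 (squares); filled points have an adjusted p under 0.05. Leaving the library out moves Axin2 from 0.29 to 0.45 and Tbx3 from 0.48 to 0.63, while Hal lies at 0.03 with all libraries and at -0.02 without it.

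By level, Hal, Etnppl, Sds and Lect2 led in control livers (52.7 to 75.6 FPKM on average) with overlapping libraries, followed by Gldc, Slc1a2, Tbx3, Rhbg and Axin2. In model livers the order was Lect2 (84.4 ± 6.54 FPKM), Hal, Gldc, Sds and Etnppl, with overlapping libraries between each of these and the next. In BBBPH livers Etnppl stood below Slc1a2 (17.4 ± 3.39 and 19.0 ± 1.63 FPKM), whose libraries overlapped with its own. Tbx3 and Rhbg had overlapping levels in control livers (2.21 ± 0.406 and 2.12 ± 0.485 FPKM) and in model livers, whereas in BBBPH livers Tbx3 was at 7.77 ± 2.64 and Rhbg at 1.59 ± 0.376 FPKM with no overlap. Spread within a group was smallest for Slc1a2 in control livers, with an SD of 4.25% of the mean, and largest for Gldc in BBBPH livers, at 61.5%.

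Other genes known to be zonated were read in the same fit, from lists that were written with earlier results of these data in view. Over all genes tested, 29.9% were higher and 8.64% lower in the model than in control, with a median of 0.12. These were 14.2%, 12.2% and 0.02 in BBBPH against model, and 24.4%, 3.7% and 0.13 in BBBPH against control. Each list count below is to be read beside these shares. Of 20 further periportal genes, all tested, 9 were lower and 2 (Pigr, Ctsc) higher in the model than in control, with a median difference of -0.38. Cps1, which catalyses the first step of the urea cycle, fell from 802 ± 71.6 to 398 ± 53.3 FPKM (-1.02, adjusted p = 1.98e-05) and was at 488 ± 82.1 in BBBPH livers. The periportal cytochrome Cyp2f2 fell from 583 ± 55.4 to 400 ± 66.7 (-0.55, adjusted p = 0.00177), and the glutaminase Gls2 from 145 ± 13.8 to 78.3 ± 13.4 (-0.89, adjusted p = 0.000347). All 3 were also lower in BBBPH than in control livers (Cps1 -0.73, adjusted p = 0.000762; Cyp2f2 -0.79, adjusted p = 0.000458; Gls2 -0.68, adjusted p = 0.00427), and none was called between BBBPH and model. Cps1 was called higher than in the model without BBBPH 3_1 or model 1_1, Gls2 without BBBPH 3_1, and Cyp2f2 lower without model 1_4. Over the list, 5 genes were higher and 2 lower in BBBPH than in model livers (median 0.14), and 1 was higher and 6 lower than in control livers (median -0.03). Between BBBPH and model, 9 were higher and 1 lower without BBBPH 3_1, and 3 higher and 1 lower without BBBPH 3_2. Under median-ratio scaling, 13 of the list were lower and 0 higher in the model than in control, and 8 lower and 0 higher in BBBPH than in control livers.

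Of 29 further pericentral genes 26 were tested, and 11 were higher and 2 (Cyp1a2, Cyp27a1) lower in the model than in control, with a median of 0.18. Over all genes tested 29.9% were higher and 8.64% lower there, with a median of 0.12, or -0.01 with median-ratio scaling. Glul, the glutamine synthetase confined to the hepatocytes around the central vein, rose from 421 ± 58.5 to 720 ± 114 FPKM (0.77, adjusted p = 0.000172). The retinal dehydrogenase Aldh1a1 rose from 381 ± 92.9 to 1039 ± 138 (1.47, adjusted p = 6.53e-06). In BBBPH livers Aldh1a1 was at 441 ± 37.1 FPKM, lower than in the model (-1.23, adjusted p = 3.58e-05). Glul was at 549 ± 44.2 FPKM, called below the model (-0.38, adjusted p = 0.0246) and above control (0.39, adjusted p = 0.0225). The first of these ended without BBBPH 2_2, BBBPH 3_1, model 2_1 or model 2_3 (adjusted p between 0.0524 and 0.065), and the second without BBBPH 3_2 or control 3_4 (0.0621 and 0.0541) or with median-ratio scaling (0.21, adjusted p = 0.163). The first also ended with the first digit of the replicate number as a block (-0.32, adjusted p = 0.101). Cyp2e1, the abundant pericentral cytochrome, was at 6319 ± 178, 6757 ± 1042 and 6971 ± 812 FPKM and was called in no comparison. Over the list, 3 genes were higher and 8 lower in BBBPH than in model livers (median -0.17), and 5 higher and 3 lower than in control livers (median 0.10, or -0.06 with median-ratio scaling). Without model 1_4, 13 were higher and 1 lower in the model, and 1 higher and 11 lower in BBBPH against model. Between BBBPH and control, 3 were higher and 2 lower without BBBPH 3_2, and 1 higher and 5 lower with median-ratio scaling.

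**Figure D4:**
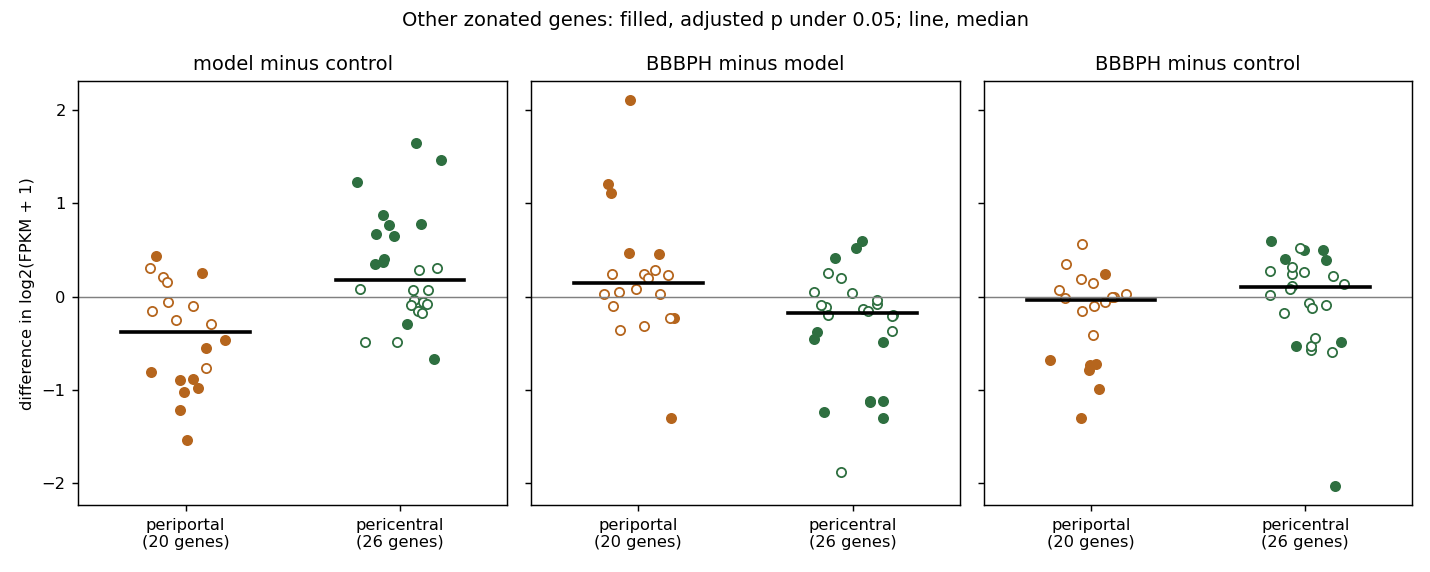
Difference in log2(FPKM + 1) (y axis) of 20 further periportal and 26 further pericentral genes in the 3 comparisons; each point is 1 gene, filled where its adjusted p is under 0.05, and the black line is the list's median. The periportal median lies at -0.38 and the pericentral one at 0.18 between model and control, and at 0.14 and -0.17 between BBBPH and model. Over all genes tested the medians were 0.12 and 0.02 in these comparisons.

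The WNT pathway itself was read in 5 lists. Of 10 ligands and release factors 4 were above the filter, and 1 was called: Rspo3, the R-spondin made by central vein endothelium, was higher in BBBPH than in control livers (3.70 ± 0.227 against 2.61 ± 0.383 FPKM, 0.39, adjusted p = 0.0219), a call that ended with median-ratio (0.26, adjusted p = 0.119) or quantile scaling (0.23, adjusted p = 0.183). That call also ended with the first digit of the replicate number as a block. Between model and control Rspo3 differed by 0.28 (adjusted p = 0.0649), and 7 of 30 alternatives called it higher in the model. Among these were the fits without model 1_1, model 1_4 or control 2_2. BBBPH differed from the model by 0.11 (adjusted p = 0.536). Wnt2, a ligand of the central vein and sinusoids, was at 2.40 ± 0.521, 2.72 ± 0.24 and 3.13 ± 0.792 FPKM in control, BBBPH and model livers and was not called, but was higher in the model without model 1_4 or control 1_1. Wnt9b, the other central vein ligand, was under the filter at 0.276, 0.411 and 0.280 FPKM in control, model and BBBPH livers, as was the R-spondin receptor Lgr5 at 0.764, 1.40 and 0.815. With no filter, Lgr5 was higher in the model than in control (0.43, adjusted p = 0.0103) and lower in BBBPH than in model livers (-0.40, adjusted p = 0.0211), and Wnt9b was not called.

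Of 12 receptors 8 were tested, with 1 higher and 4 lower in the model (29.9% and 8.64% of all genes), 2 higher in BBBPH against model (14.2%), and 2 higher and 1 lower in BBBPH against control (24.4% and 3.7%). The receptor Fzd4 was at 8.84 ± 1.63, 5.52 ± 1.38 and 10.6 ± 1.93 FPKM in control, model and BBBPH livers, lower with the diet (-0.60, adjusted p = 0.00605) and higher with the powder (0.84, adjusted p = 0.00093). Ryk, a co-receptor, did the same (-0.34, adjusted p = 0.00624, and 0.41, adjusted p = 0.0026), while the co-receptor Lrp5 rose with the diet from 10.1 ± 1.45 to 17.8 ± 0.887 FPKM (0.77, adjusted p = 0.000345). Of 12 members of the destruction complex and its relay 11 were tested, and 2 rose and 2 fell with the diet. Dvl1, which relays the signal from the receptors, was at 13.1 ± 0.836, 8.48 ± 0.737 and 11.9 ± 1.45 FPKM (-0.58, adjusted p = 0.000112 with the diet, and 0.44, adjusted p = 0.00128 with the powder). Beta-catenin itself, Ctnnb1, was higher in the model (62.8 ± 3.71 FPKM) and in BBBPH livers (63.6 ± 3.47) than in control (54.3 ± 1.53), by 0.21 (adjusted p = 0.0117) and 0.22 (adjusted p = 0.0113), and both calls ended with median-ratio and quantile scaling, at differences of 0.05 to 0.14.

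Of 10 nuclear partners of beta-catenin 5 were tested, and 2 were called between model and control: the histone acetyltransferases Crebbp (-0.32, adjusted p = 0.00526) and Ep300 (-0.30, adjusted p = 0.00812) were lower. Of 12 inhibitors 7 were tested. Nkd1, a feedback inhibitor, and the co-repressor Tle3 were higher in the model than in control (0.35, adjusted p = 0.0111, and 0.57, adjusted p = 0.0071), and the call of Nkd1 ended with quantile scaling (0.21). Rnf43, a ligase that removes WNT receptors, and Notum, an enzyme that inactivates WNT ligands, were the 2 called higher in BBBPH than in model livers (0.53, adjusted p = 0.0295, and 0.41, adjusted p = 0.0407), and the co-repressor Tle1 was lower there (-0.27, adjusted p = 0.0043). Both Rnf43 and Notum are also on the pericentral list, and by its count given above these 2 calls did not both hold without model 1_4. Rnf43 and Notum, like Pigr, Ctsc, Cyp1a2 and Cyp27a1 above, were named after their values were seen.

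Genes that work with the periportal enzymes were read as well. Amt, the aminomethyltransferase of the same glycine cleavage system as Gldc, was at 11.4 ± 0.818, 29.7 ± 3.44 and 15.02 ± 3.79 FPKM, up with the diet (1.30, adjusted p = 9.21e-06) and down with the powder (-0.96, adjusted p = 0.000145). Srr, a serine racemase, was also higher in model than in control livers and lower in BBBPH than in model livers (0.43, adjusted p = 0.00135, and -0.67, adjusted p = 7.30e-05). In that list of 14 glycine, serine and threonine genes 11 were tested, and 3 rose and none fell with the diet, while none rose and 2 fell with the powder. Of 5 further histidine genes, Hdc, which makes histamine, rose from 1.18 ± 0.159 to 2.97 ± 1.02 FPKM with the diet (0.83, adjusted p = 0.000328) and was at 1.124 ± 0.146 with the powder (-0.87, adjusted p = 0.000327). Amdhd1, the third enzyme of histidine breakdown, was lower in BBBPH than in model livers (-0.51, adjusted p = 0.0221). That call ended without BBBPH 2_1 or model 2_1, or with the first digit of the replicate number as a block (adjusted p up to 0.0538).

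Of 14 ammonia and glutamate genes 10 were tested, with 3 higher and 4 lower in the model, and none higher and 4 lower in BBBPH against model. Oat, the pericentral ornithine aminotransferase, was at 360 ± 80.5, 621 ± 146 and 251 ± 60.5 FPKM (0.78, adjusted p = 0.00486, and -1.30, adjusted p = 0.000187), and glutamate dehydrogenase, Glud1, at 316 ± 31.4, 439 ± 26.4 and 311 ± 18.3 (0.48, adjusted p = 0.000226, and -0.50, adjusted p = 0.000235). Of 10 genes of phosphatidylethanolamine metabolism, all tested, 3 were higher and 1 (Pcyt2) lower in the model than in control. Between BBBPH and model, 1 (Pcyt2) was higher and 2 were lower, so Pcyt2 did not stand for its list. Pcyt2, the CDP-ethanolamine enzyme that uses the substrate of Etnppl, ran at 132 ± 12.3, 105 ± 9.72 and 156 ± 12.8 FPKM. It fell with the diet (-0.33, adjusted p = 0.00692) and rose with the powder (0.58, adjusted p = 0.000206), whereas Etnppl fell in both.

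Several other values moved with the groups. The 7 markers of central vein endothelium (4 tested; 1, Thbd, higher in the model and lower in BBBPH against model) summed to 8.83 to 11.5 FPKM in control, 13.2 to 15.5 in model and 10.5 to 12.8 in BBBPH livers. Of 6 markers of stellate cells and fibroblasts 5 were higher in the model than in control, at 128 to 163 FPKM against 100.4 to 125, and of 7 hepatocyte markers 3 were lower. Over all genes tested 29.9% were higher and 8.64% lower there. Of 12 hepatocyte identity factors, Hnf4a was at 172 ± 21.9, 193 ± 7.58 and 134 ± 20.7 FPKM and was lower in BBBPH than in model livers (-0.54, adjusted p = 0.00147). Their part in the levels of the 9 genes was not tested.

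For each of the 9 genes, the tested genes whose deviations from the group means were most like its own over the 15 libraries were listed, as a description that shares depth and library preparation. Lect2 lay nearest to Atp5g1 (Pearson r = 0.967) and Pacsin3 (0.943), Axin2 to Mn1 (0.920) and Lhfpl2 (0.858), and Slc1a2 to Nr2f2 (0.906) and Ap3s2 (0.900). Gldc lay nearest to Lgalsl (0.874) and Pnkd (0.872), Sds to Wnt5b (0.851) and Parp3 (0.8285), and Tbx3 to Rnf39 (0.849) and Calr3 (0.846). Hal lay nearest to Galt (0.842) and Nnmt (0.831), Etnppl to Tk2 (0.835) and Cep85l (0.812), and Rhbg to Cipc (0.831) and Rbbp5 (0.792). None of these 18 is among the 9.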

How the data were processed

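Liver RNA was extracted with TRIzol and made into libraries with the VAHTS Universal V6 kit, per the labels' protocols. Tools listed in the submitters' processing notes, with neither version nor role, are HISAT2, fastp, DESeq2 and HTSeq, beside the build mm10; annotation and filters are not given in the sources used here. The authors deposited FPKM per gene and library, without pooling, and the series table held the same values as the 15 single files. Columns mapped to no sample numbered 0. For 15850 genes the FPKM gave back whole fragment counts, and with them the depth of each library.

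The test was limma 3.58.1 (R 4.3.3) on log2(FPKM + 1) for the 9575 genes whose mean reached 1 FPKM, fitted as 3 group means, which leaves 12 degrees of freedom, with the eBayes option trend=TRUE. Adjustment of the 2-sided p-values followed Benjamini and Hochberg over all genes, with a threshold of 0.05 for a call. Tables were made in Python 3.11.15, and the procedure was tested on simulated data.

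The 9 genes and 14 gene lists were chosen with earlier results of these data known. Named are the 9 genes, up to 3 called genes per list by smallest adjusted p, 9 others whatever their values (Glul, Cyp2e1, Cyp2f2, Cps1, Ctnnb1, Wnt2, Wnt9b, Rspo3, Lgr5), and the 2 nearest genes of each of the 9. Of the genes this rule names, 2 are not reported here. The 31 alternatives covered the pseudocount, filters, TPM, scaling, the variance model, library weights, replicate blocks, voom on recovered counts, and libraries left out. List counts without single libraries or under other scalings were added after seeing the data. Positions are from GENCODE M21.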

Additional observations from a re-analysis of the deposited data

Results flagged for a closer look

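Of 147 groups of 5 libraries checked (49 named genes), 8 held a highest or lowest library whose gap to the next was large for the range of its group; chance alone gives this in about 1 group in 20. One is among the 9 zonation genes: Gldc in BBBPH 2_1 was at 51.3 FPKM, against 13.5 to 20.8 in the other 4. In the same library Zbtb16, a glucocorticoid-induced transcription factor, was at 3.16 FPKM against 0.296 to 0.962.

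Control 3_4 was set apart in 3 genes. Gls2 was at 121 FPKM against 147 to 157, the kinase Sik1 at 7.07 against 2.73 to 3.73, and Cept1, an enzyme of phospholipid synthesis, at 6.97 against 4.94 to 5.09. Model 1_4, the library with high Saa2, had 4918 FPKM of Cyp2e1 against 6921 to 7356 in the other model livers. Control 2_2 had 371 FPKM of Glud1 against 295 to 306, and control 2_1 had 0.927 FPKM of Lgr5 against 0.694 to 0.744.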

How the results depend on the processing

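No difference of a named gene that was called changed sign under the 31 alternatives run (30 for genes under a mean of 5 FPKM). For the 9 genes, 732 of 828 such values kept their side of the threshold, 67 lost a call and 29 gained one. Etnppl in all 3 comparisons, Gldc, Rhbg and Lect2 between model and control, Gldc, Rhbg and Tbx3 between BBBPH and model, and Axin2 and Tbx3 between BBBPH and control kept their calls in all of them. Called members between model and control numbered 4, but 7 with library weights, and 8 without model 1_4 and without 2 (model 1_4, BBBPH 2_2) or 3 libraries (also control 2_1). Between BBBPH and model they numbered 6, and 3 with a filter at 5 FPKM, which drops Rhbg, Axin2 and Tbx3. Between BBBPH and control they numbered 6, and 3 with that filter, with no filter and without BBBPH 3_2. Leaving out 1 library gave 4 to 8, 4 to 6 and 3 to 6 members in the 3 comparisons in that order.

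All genes called numbered 3692, 2533 and 2691. They numbered 3100 to 3763, 2080 to 2645 and 1864 to 2846 with 1 library left out, and 2259, 1634 and 1502 with a filter at 5 FPKM, where fewer genes were tested (5578). Median-ratio scaling gave 1609 and quantile scaling 1540 between BBBPH and control. These scalings changed the split of calls. Between model and control 2865 were higher and 827 lower, against 1482 and 1815 (median ratio), 1499 and 1742 (quantile) and 2098 and 1022 without the 20 most abundant genes. Between BBBPH and control it was 2337 and 354, against 665 and 944, and 691 and 849. The cause was not tested.

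Libraries with the same replicate number were not alike beyond their groups (residual r of 8 same-numbered pairs -0.33 to 0.02). With the full number as a replicate block 3440, 2411 and 2471 genes were called, and with its first digit as a replicate block 3586, 1795 and 1844. Libraries of different groups that share a first digit had a median residual r of -0.01 over 23 pairs (-0.33 to 0.44). The median was 0.02 over 52 pairs with different digits (-0.26 to 0.28). First digits are not spread evenly over the groups, so the group means would take up part of an effect of the digit. This check therefore cannot exclude such an effect. That first-digit replicate block ended the calls of Hal (BBBPH against model -0.41, adjusted p = 0.135, and against control -0.38, adjusted p = 0.15), Sds (BBBPH against control -0.59, adjusted p = 0.119), Axin2 (BBBPH against model 0.43, adjusted p = 0.157) and Glul (BBBPH against model -0.32, adjusted p = 0.101), and the full-number block those of Hal and Lect2 between BBBPH and control (adjusted p = 0.0585 and 0.055). The voom fit on recovered counts called 3652, 2573 and 2660. Depth limits Axin2 and Rhbg most, with 54 to 519 fragments per library.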

Other observations

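Clock genes and hormone-responsive genes were read beside the zonation genes, from lists written with earlier results in view. Of 18 clock genes 15 were tested, and 6 were lower and 2 higher in the model than in control, with 8 higher and 4 lower in BBBPH than in model livers. Over all genes tested 8.64% were lower and 29.9% higher in the model, and 14.2% higher and 12.2% lower in BBBPH against model. The period gene Per3 was at 3.001 ± 0.923, 0.820 ± 0.275 and 3.67 ± 1.48 FPKM in control, model and BBBPH livers (-1.12, adjusted p = 0.0013, and 1.30, adjusted p = 0.000651). The cryptochrome Cry2 was at 6.79 ± 0.488, 4.98 ± 0.943 and 8.48 ± 0.936 (-0.39, adjusted p = 0.00607, and 0.67, adjusted p = 0.000206). The labels used here do not give the hour at which livers were taken.

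Of 19 genes that answer to glucagon, cAMP or glucocorticoids 17 were tested, with 2 higher and 4 lower in the model, and 3 higher and 3 lower in BBBPH than in model livers. The shares over all genes are those given for the clock genes. Sik1 was at 3.95 ± 1.78, 1.20 ± 0.179 and 4.77 ± 1.80 FPKM (-1.11, adjusted p = 0.000669, and 1.35, adjusted p = 0.000222), and Zbtb16 at 2.56 ± 1.34, 8.45 ± 1.83 and 1.18 ± 1.13 (1.47, adjusted p = 0.00107, and -2.21, adjusted p = 6.88e-05). Cpt1a, which lets fatty acids into mitochondria, was higher in BBBPH than in model livers (167 ± 14.2 against 115 ± 15.6 FPKM, 0.54, adjusted p = 0.000433).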
